A study of Homo sapiens with 4 samples.

Results

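The genes described here are 40 genes of glucose uptake, glycolysis, lactate handling and the hypoxia response, read out in A673 cells after transfection with an siRNA against FAT4 or with a scramble control siRNA. They were chosen by symbol, 39 under their current names and pyruvate kinase M (PKM) under its older name PKM2, and all 40 were found among the 23228 genes in the files. A673 is an Ewing sarcoma cell line, driven by the fusion of EWSR1 with FLI1. There were 4 groups with 1 RNA library each, the FAT4 siRNA at 48 h and at 24 h after transfection and the control siRNA at 48 h and at 24 h. All 4 came from cells grown in DMEM with fetal bovine serum and transfected with RNAiMAX, so the lipid reagent and an siRNA were common to every group and no untransfected cells are analysed here. Nothing below has a replicate culture behind it.

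Glycolysis splits glucose into pyruvate in the cytosol, and lactate dehydrogenase turns pyruvate into lactate, which leaves the cell through monocarboxylate transporters. When oxygen is plentiful, prolyl hydroxylases of the EGLN family mark the alpha subunits of hypoxia-inducible factor (HIF) for destruction. When oxygen is short, the subunits persist, pair with ARNT and switch on genes of glucose uptake, glycolysis, pH control and vessel growth. Control of the HIF alpha subunits by oxygen acts mainly on the protein, which RNA counts do not measure. Several of the hypoxia-induced genes, among them DDIT4 and STC2, are also known targets of other stress pathways.

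Reads assigned to genes numbered 15196813 to 22625833 per library, and 3 reads, used as the floor of detection, stood for 0.134 to 0.203 CPM (read counts scaled to a common library size, with TMM factors). FAT4 itself was at 60.2 and 71.8 CPM with the FAT4 siRNA at 48 h and 24 h, against 149 and 165 CPM with the control siRNA. Of 7 Ewing sarcoma markers, 6 were expressed, with summed levels of 3200.3 to 3955 CPM, and CD99, a pseudoautosomal gene, was listed at 0 in every library. Each of the 14 leukocyte, epithelial and endothelial markers averaged below 1 CPM. In bulk RNA, a change in the number of cells that express a gene cannot be told apart from a change in RNA per cell. Tests were made with edgeR over all 13712 genes that passed a filter on low counts, with siRNA and time as additive terms in 1 fit, and a gene was called at an adjusted p under 0.05. These p-values rest on 1 residual degree of freedom and 1 dispersion trend shared by all genes, so they weigh agreement between pairs of single libraries and not the spread between cultures. Of the 40 members, 39 were tested. The exception was EPAS1, which had 2 and 4 reads at 48 h and 2 and 3 reads at 24 h, each time with the FAT4 siRNA before the control siRNA.

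Glycolytic enzymes held most of the reads of the set. Per kilobase of transcript, the mean level over the 4 libraries was highest for the dehydrogenase GAPDH at 1994 CPM per kilobase, ahead of the enolase ENO1 at 1659 and PKM at 1033. The lactate dehydrogenase subunit LDHB followed at 765, then the aldolase ALDOA at 758. The lowest levels on this scale were those of EPAS1 at 0.0289 and of the prolyl hydroxylase EGLN3 at 0.373. Summed over the 40 genes, the level was 17003 CPM with the FAT4 siRNA and 16805 CPM with the control siRNA at 48 h, against 17584 and 18454 CPM at 24 h. Of this sum, the 9 genes of lower glycolysis held 11906 and 11364 CPM at 48 h and 12716 and 13416 CPM at 24 h. Processed pseudogenes make some of these levels uncertain: GENCODE 29 names 62 pseudogene loci after GAPDH, 39 after BNIP3 and 13 after PGAM1. Alignments that were not unique were set apart by the counter, at 43.1 to 44.6 for every 100 reads that aligned to 1 place. That entry counts alignments and not reads, so it is not the share of reads lost. Genes with such pseudogenes can be undercounted in all 4 libraries.

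**Figure D1:**
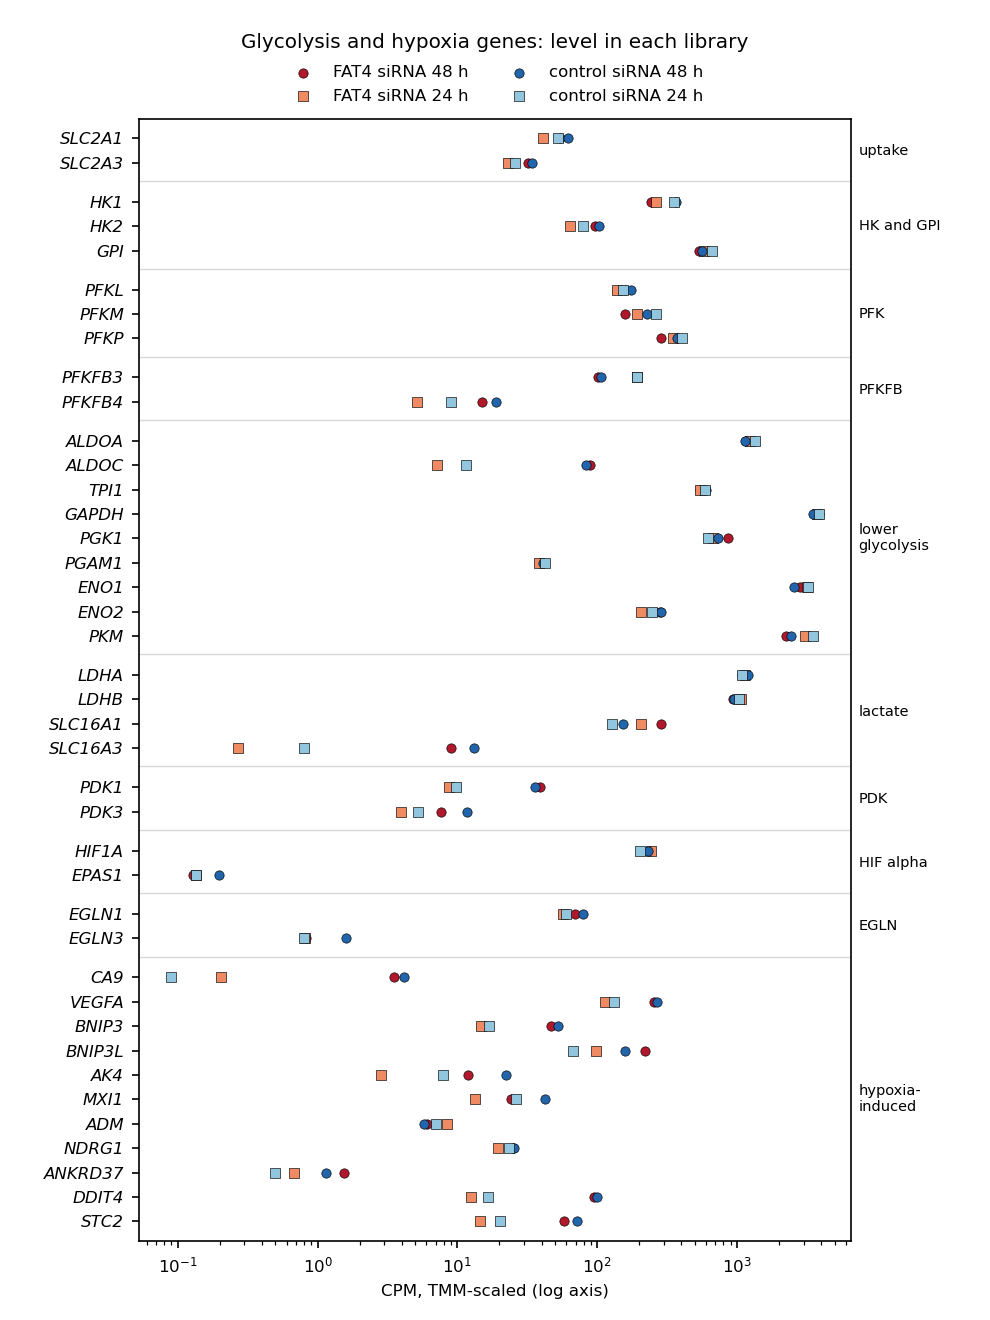
Level of each of the 40 genes in each library, in TMM-scaled CPM on a log axis, grouped by role (abbreviated on the right). Circles are 48 h and squares 24 h, red shades the FAT4 siRNA and blue shades the control siRNA. The 4 symbols of a gene of lower glycolysis mostly overlap, apart from ALDOC, whereas for most of the hypoxia-induced genes both circles lie to the right of both squares.

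Time after transfection was examined first, with 48 h set against 24 h. Of the 11 members grouped as hypoxia-induced, 9 rose at 48 h (81.8%, against 13.8% of all genes tested). Some of them rose several-fold, and all 9 had the same sign under either siRNA. The abundant enzymes of lower glycolysis changed far less. The largest fitted changes were those of the carbonic anhydrase CA9, the lactate exporter SLC16A3, the aldolase ALDOC and the mTORC1 inhibitor DDIT4. The glycolytic activator PFKFB3 and pyruvate kinase fell. RNA of HIF1A itself did not pass the test.

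Of the 39 members tested, 21 rose and 4 fell at 48 h (64.1% called). Among all 13712 genes tested, 26.6% were called, 13.8% higher and 12.8% lower, so the share of members that rose (53.8%) was above that of all genes and the share that fell (10.3%) was near it. The balance over all genes moved with the scaling, with 1892 higher and 1754 lower under TMM, 2330 and 1183 with library totals alone, and 1488 and 2266 after correction for GC content and transcript length. At least 2-fold rises were made by 13 members, or 33.3%, against 3.31% of all genes. The median log2 fold change was 0.33 over the members and 0.01 over all genes tested. Both 48 h libraries lay above both 24 h libraries in CPM for 22 members, against 23.8% of all genes, and below both for 7 members, against 21.6%. The genes were chosen with a rise of hypoxia genes at 48 h already known from these libraries, so these counts describe the set and are no separate evidence of its direction.

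**Figure D2:**
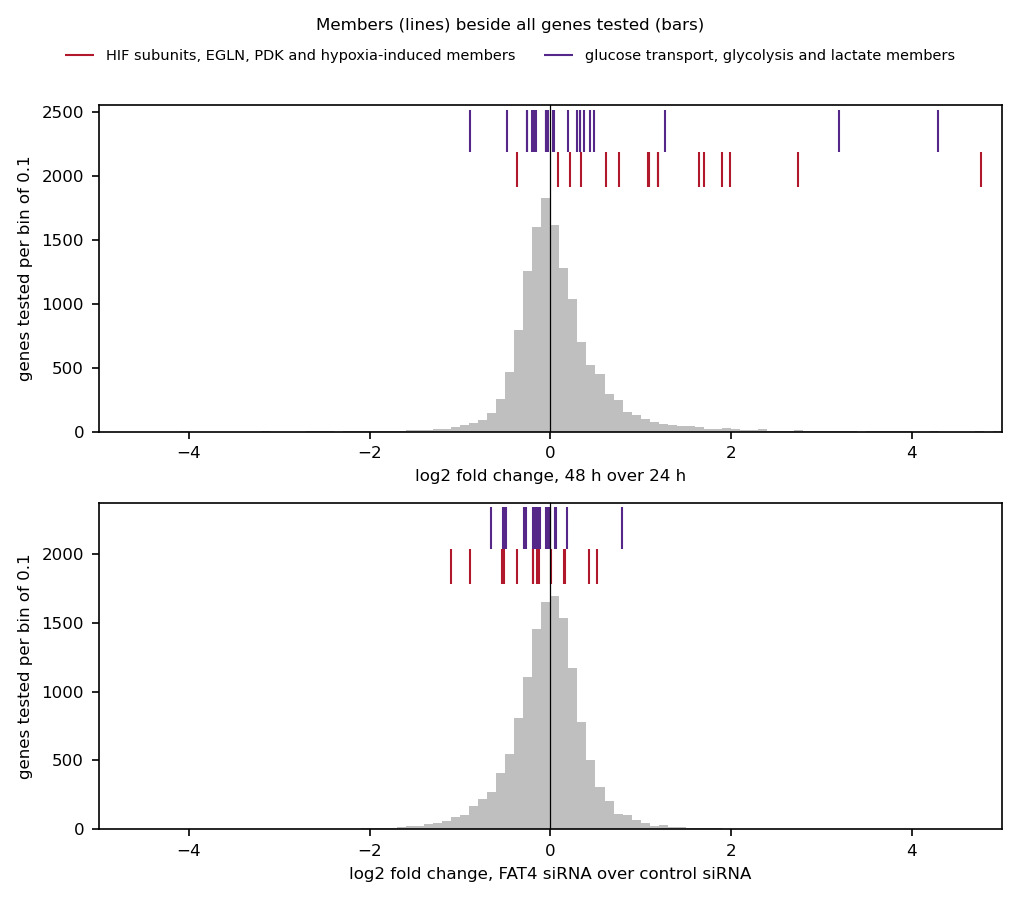
Distribution of the fitted log2 fold change over all 13712 genes tested (grey bars, genes per bin of 0.1, with values past the ends placed in the end bins) and the 39 tested members (lines above the bars; red for HIF subunits, EGLN genes, PDK genes and hypoxia-induced genes, purple for transport, glycolysis and lactate). In the upper panel, 48 h over 24 h, 13 members lie at or beyond 1, and in the lower panel, FAT4 siRNA over control siRNA, AK4 is the only member beyond 1 in either direction.

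Of the 11 hypoxia-induced genes, 9 rose at 48 h (81.8%, against 13.8% of all genes tested), 0 fell and 2 were not called. The median log2 fold change of the 11 was 1.19. Summed over the 11, the level was 746 CPM with the FAT4 siRNA and 748 CPM with the control siRNA at 48 h, against 299 and 317 CPM at 24 h. CA9, a cell-surface carbonic anhydrase and a classical HIF1 target, had 55 reads with the FAT4 siRNA and 83 with the control siRNA at 48 h, against 3 and 2 reads at 24 h. Its ratio of 48 h to 24 h was 17.3 with the FAT4 siRNA (95% counting interval 5.63 to 86.6) and 46.1 with the control siRNA (interval 12.4 to 387). CA9 was thus at or under the floor at 24 h and well above it at 48 h, and the size of its fold change is poorly known.

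DDIT4, which restrains mTORC1 under stress, was at 95.4 CPM with the FAT4 siRNA and 99.2 CPM with the control siRNA at 48 h, against 12.5 and 16.6 CPM at 24 h. Its log2 fold change was 2.74 (SE 0.120, adjusted p = 1.51e-110). STC2, a secreted stanniocalcin, was at 57.8 and 71.6 CPM at 48 h, against 14.6 and 20.1 CPM at 24 h, and rose by 1.90 (SE 0.124, adjusted p = 8.95e-50). The smallest ratio of 48 h to 24 h in these 2 genes was 3.57 (STC2 with the control siRNA), and the times did not overlap. The angiogenic factor VEGFA was at 255 CPM with the FAT4 siRNA and 266 CPM with the control siRNA at 48 h, against 113 and 132 CPM at 24 h, and rose by 1.09 (SE 0.0927, adjusted p = 2.94e-29).

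The mitophagy receptors BNIP3 and BNIP3L rose side by side. BNIP3 was at 46.7 and 52.8 CPM at 48 h with the FAT4 and the control siRNA, against 14.8 and 16.9 CPM at 24 h, a rise of 1.65 (SE 0.130, adjusted p = 2.49e-34). BNIP3L was at 219 and 158 CPM at 48 h, against 98.7 and 66.9 CPM at 24 h, a rise of 1.19 (SE 0.0957, adjusted p = 5.46e-33). The mitochondrial adenylate kinase AK4 rose by 1.70 and the MYC antagonist MXI1 by 0.76, and their 4 libraries are given with the siRNA comparison below. ANKRD37, a small ankyrin repeat gene, had 24 and 23 reads at 48 h, against 10 and 11 reads at 24 h. Its rise of 1.19 (adjusted p = 0.0452) was lost after correction for GC content and transcript length (adjusted p = 0.0504) and without the filter on low counts (adjusted p = 0.0648).

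The other 2 hypoxia-induced genes did not pass the test. The vasodilator peptide gene ADM was at 6.08 and 5.82 CPM at 48 h, against 8.39 and 7.03 CPM at 24 h (log2 fold change -0.36, adjusted p = 0.175). NDRG1, a stress-induced gene of differentiation, was at 24.8 and 25.3 CPM at 48 h, against 19.4 and 23.5 CPM at 24 h (log2 fold change 0.22, adjusted p = 0.223). ADM was thus lower in both 48 h libraries than in either 24 h library, opposite to the 9 genes that rose.

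**Figure D3:**
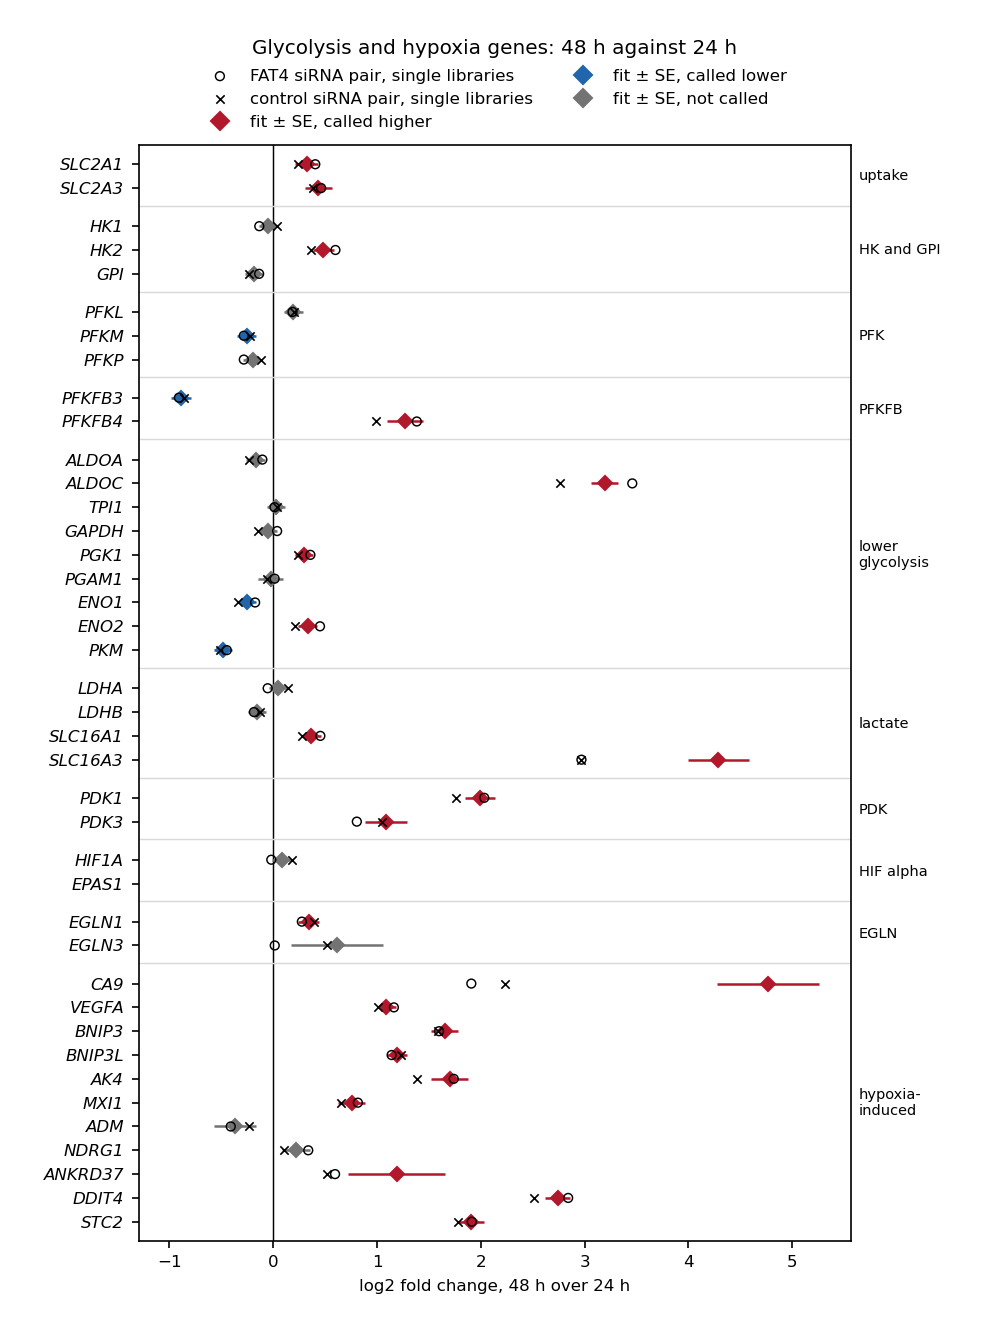
Fitted log2 fold change of 48 h over 24 h for each tested gene (diamonds, with the SE of the fit as bars; red called higher, blue called lower, grey not called), with log2 ratios of CPM plus 1 in the FAT4 siRNA pair (circles) and the control siRNA pair (crosses). The added 1 CPM pulls the ratios of the scarce genes CA9, SLC16A3 and ANKRD37 towards 0, away from the fit. Red diamonds reach 4.76 (CA9) and 4.29 (SLC16A3), and the lowest blue one is PFKFB3 at -0.89.

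Both pyruvate dehydrogenase kinases, which shut the mitochondrial entry of pyruvate, rose. PDK1 was at 38.8 CPM with the FAT4 siRNA and 35.7 CPM with the control siRNA at 48 h, against 8.73 and 9.85 CPM at 24 h, a rise of 1.99 (SE 0.144, adjusted p = 1.76e-40). PDK3 was at 7.61 and 11.8 CPM at 48 h, against 3.92 and 5.19 CPM at 24 h, a rise of 1.09 (SE 0.204, adjusted p = 2.61e-06). The lactate exporter SLC16A3 (MCT4) had 140 and 263 reads at 48 h, against 4 and 18 reads at 24 h. Its ratio of 48 h to 24 h was 33.1 with the FAT4 siRNA (counting interval 12.6 to 123) and 16.2 with the control siRNA (interval 10.1 to 27.8), and it rose by 4.29 in the fit (SE 0.292, adjusted p = 1.27e-45). The other monocarboxylate transporter of the set, SLC16A1 (MCT1), was already abundant at 24 h and rose by 0.37. The lactate dehydrogenase subunits LDHA and LDHB had log2 fold changes of 0.05 and -0.15 and did not pass the test.

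Along the glycolytic pathway, HK2, ALDOC and ENO2, each scarcer than the other isoenzyme of its step within the set, rose. This was not so at every step, as PFKL, on average the scarcest phosphofructokinase of the set, was not called. The glucose transporters SLC2A1 (GLUT1) and SLC2A3 (GLUT3) rose by 0.33 and 0.43, and the hexokinase HK2 by 0.48, whereas HK1 had a log2 fold change of -0.05 and was not called. Among the phosphofructokinases PFKM fell by 0.25, and PFKL (0.19) and PFKP (-0.20) were not called. The rises of SLC2A1 and SLC2A3 and the fall of PFKM were not called by DESeq2 (adjusted p = 0.201, 0.138 and 0.131).

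The 2 members that control the level of fructose-2,6-bisphosphate, the allosteric activator of phosphofructokinase, went opposite ways. PFKFB4 was at 15.0 CPM with the FAT4 siRNA and 18.9 CPM with the control siRNA at 48 h, against 5.14 and 9.0 CPM at 24 h, and rose by 1.27 (SE 0.170, adjusted p = 7.81e-12). PFKFB3 was at 102 and 106 CPM at 48 h, against 192 and 194 CPM at 24 h, and fell by 0.89 (SE 0.0942, adjusted p = 7.05e-19). The 2 siRNAs gave nearly the same PFKFB3 level at each time.

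In lower glycolysis, 3 of 9 genes rose, 2 fell and 4 were not called. The rises were 33.3% and the falls 22.2%, against 13.8% and 12.8% of all genes tested. ALDOC, the aldolase of neural tissue, was at 88.9 CPM with the FAT4 siRNA and 83.8 CPM with the control siRNA at 48 h, against 7.17 and 11.5 CPM at 24 h. It rose by 3.19 (SE 0.129, adjusted p = 4.60e-128), and its ratio of 48 h to 24 h was 12.4 (counting interval 10.2 to 15.2) with the FAT4 siRNA and 7.28 (interval 6.38 to 8.33) with the control siRNA. The neuronal enolase ENO2 and the phosphoglycerate kinase PGK1 rose by 0.33 and 0.30, and neither was called by DESeq2 (adjusted p = 0.0601 and 0.0536). PKM was at 2253 and 2428 CPM at 48 h, against 3070.2 and 3473 CPM at 24 h, and fell by 0.48 (SE 0.0891, adjusted p = 1.79e-06). ENO1 fell by 0.26 and was not called by DESeq2 (adjusted p = 0.0783). ALDOA, the triosephosphate isomerase TPI1, GAPDH and the mutase PGAM1 were not called, with log2 fold changes of -0.17 to 0.02. After correction for GC content and transcript length, 20 members rose and 7 fell at 48 h, with GPI, PFKP and ALDOA newly called lower.

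Among the HIF subunits and prolyl hydroxylases of the set, 1 of 3 tested genes was called, against 26.6% of all genes tested. HIF1A was at 239 CPM with the FAT4 siRNA and 231 CPM with the control siRNA at 48 h, against 242 and 204 CPM at 24 h (log2 fold change 0.08, adjusted p = 0.529). EGLN1, the main prolyl hydroxylase acting on HIF1A, was at 69.1 and 79.1 CPM at 48 h, against 56.9 and 60.0 CPM at 24 h. It rose by 0.34 (adjusted p = 0.00663), but was not called by DESeq2 (adjusted p = 0.135). EGLN3 had 13 and 32 reads at 48 h, against 12 and 18 reads at 24 h, and was not called (log2 fold change 0.61, adjusted p = 0.320). Its ratio of 48 h to 24 h was 1.02 with the FAT4 siRNA (counting interval 0.431 to 2.45) and 1.97 with the control siRNA (interval 1.07 to 3.73).

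The promoters of the members that rose were searched for the core letters of the hypoxia response element, to which HIF binds. The letters were ACGTG and GCGTG on either strand (CACGT and CACGC when read on the gene's strand), in windows of 250 bases before to 50 bases after the start sites in RefSeq (build GRCh38.p14; the reads were aligned to hg19, so windows were matched by gene symbol and not by position). ACGTG and its reverse complement overlap in CACGTG, and a window counted once however many matches it held. Promoter windows were listed for 35 members, and 33 of these genes (94.3%) held a match in at least 1 window. All 17 listed members that rose at 48 h did, as did 15 of the 17 (88.2%) that fell or were not called, against 52.4% of 27305 listed genes. Of single windows, 24 of 28 held a match in the members that rose and 22 of 38 in those that fell or were not called, against 48.4% of all windows. A match to so short a word is a description and not a binding site. The set was chosen to hold known HIF targets, so a share above that of all genes is no finding from these libraries. The share of genes also depends on how many windows each has, and members had 67 windows for 35 genes, against 35116 for 27305. The following lines show, for the 8 listed members with the largest rise, 30 bases around the match nearest to a listed start site, 5′ to 3′ on the gene's strand and with the core letters in capitals.
CA9, chr9:35673898-35673927, plus strand: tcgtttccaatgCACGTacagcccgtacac
SLC16A3, chr17:82234865-82234894, plus strand: cgtcgtgggtggGCGTGgagcttgcacagc
ALDOC, chr17:28576906-28576935, minus strand: ccccggaggagtCACGTagctctgcgacat
DDIT4, chr10:72273937-72273966, plus strand: ggggaggtgcgaGCGTGgacctgggacggg
PDK1, chr2:172556070-172556099, plus strand: cgcCACGTccctCACGTaccactcggcaga
STC2, chr5:173328619-173328648, minus strand: acgCACGCaaacGCGTGgccgccgccaggt
AK4, chr1:65148180-65148209, plus strand: cggggaggtgtaGCGTGgcgctcagtccgc
BNIP3, chr10:131982010-131982039, minus strand: CACGCccctgcgCACGCgcaggccccaagt
CA9 and ALDOC carry CACGT 18 and 28 bases before the start site. PDK1 and STC2 each show 2 matches within the 30 bases, as does BNIP3. SLC16A3 has 5 listed windows, AK4 has 4 and PDK1 has 2, and which of these starts is used in A673 cells was not measured.

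Set against the control, the FAT4 siRNA was followed by smaller changes, read here over both times. The lactate and pyruvate transporter SLC16A1 and the mitophagy receptor BNIP3L rose. AK4, MXI1, HK1 and the muscle phosphofructokinase PFKM fell the most clearly, in both pairs of libraries. The shared enzymes of lower glycolysis were not called. Of the 39 members tested, 2 rose (5.13%) and 9 fell (23.1%), against 11.9% and 14.1% of all genes tested. Members called in either direction numbered 11 (28.2%), near the 25.9% of all genes. The median log2 fold change was -0.14 over the members and -0.01 over all genes.

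SLC16A1 was at 284 CPM at 48 h and 207 CPM at 24 h with the FAT4 siRNA, against 154 and 127 CPM with the control siRNA. It rose by 0.79 (SE 0.0920, adjusted p = 1.44e-15), and the FAT4 siRNA library held 1.84 times the control level at 48 h (counting interval 1.76 to 1.93) and 1.63 at 24 h (interval 1.55 to 1.71). Both libraries of the FAT4 siRNA lay above both of the control. This held for 2 of the 39 tested members, SLC16A1 and HIF1A, against 20.8% of all genes tested, and HIF1A was not called. BNIP3L was at 219 CPM at 48 h and 98.7 CPM at 24 h with the FAT4 siRNA, against 158 and 66.9 CPM with the control siRNA, and rose by 0.51 (SE 0.0949, adjusted p = 1.81e-06). Its close relative BNIP3 had a log2 fold change of -0.19 and was not called (adjusted p = 0.291).

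AK4 was at 11.8 CPM at 48 h and 2.84 CPM at 24 h with the FAT4 siRNA, against 22.1 and 7.84 CPM with the control siRNA. It fell by 1.10 (SE 0.180, adjusted p = 4.34e-08) and was the only member called with a change of at least 2-fold. MXI1 was at 24.1 CPM at 48 h and 13.3 CPM at 24 h with the FAT4 siRNA, against 42.2 and 26.4 CPM with the control siRNA, and fell by 0.89 (SE 0.134, adjusted p = 1.93e-09). AK4 and MXI1 thus rose with time under either siRNA and were lower with the FAT4 siRNA at each time. STC2 fell by 0.37, PFKFB4 by 0.53, PDK3 by 0.54 and SLC16A3 by 0.66 (adjusted p = 0.0131, 0.0113, 0.0368 and 0.0392), and all 4 of these rose with time as well. None of these 4 falls was called by DESeq2 (adjusted p = 0.147 to 0.349). For SLC16A3 and PDK3 the counting interval of the ratio at 24 h included 1.

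HK1, the hexokinase of most tissues, was at 241 CPM at 48 h and 264 CPM at 24 h with the FAT4 siRNA, against 363 and 353 CPM with the control siRNA. It fell by 0.51 (SE 0.0895, adjusted p = 5.53e-07). PFKM was at 158 CPM at 48 h and 192 CPM at 24 h with the FAT4 siRNA, against 227 and 265 CPM with the control siRNA, and fell by 0.49 (SE 0.0911, adjusted p = 1.91e-06). PFKP fell by 0.29 (adjusted p = 0.00646), a call that was lost in DESeq2 (adjusted p = 0.0748). For all 3 genes both libraries of the FAT4 siRNA lay below both of the control. This held for 6 of the 39 tested members, against 23% of all genes tested, and TPI1 and PGAM1 among the 6 were not called. HK2 (-0.19), PFKL (-0.14), SLC2A1 (-0.27, adjusted p = 0.0531), SLC2A3 (-0.13) and GPI (-0.13) had negative log2 fold changes and did not pass the test.

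None of the 9 genes of lower glycolysis was called by edgeR or by DESeq2, with log2 fold changes of -0.17 (ALDOC) to 0.19 (PGK1). Over all genes tested, edgeR called 25.9%. LDHA (-0.02) and LDHB (0.00) were likewise not called. GAPDH, often used as a loading control, was at 3853 CPM at 48 h and 3752 CPM at 24 h with the FAT4 siRNA, against 3493 and 3858 CPM with the control siRNA. HIF1A was at 239 CPM at 48 h and 242 CPM at 24 h with the FAT4 siRNA, against 231 and 204 CPM with the control siRNA, and was not called (log2 fold change 0.15, adjusted p = 0.227). EGLN1 (-0.14), VEGFA (-0.13), DDIT4 (-0.19), CA9 (-0.13), ADM (0.16), NDRG1 (-0.15), PDK1 (0.00) and PFKFB3 (-0.04) were not called either. EGLN3 (-0.52) and ANKRD37 (0.43) did not pass, with at most 32 and 24 reads in a library.

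**Figure D4:**
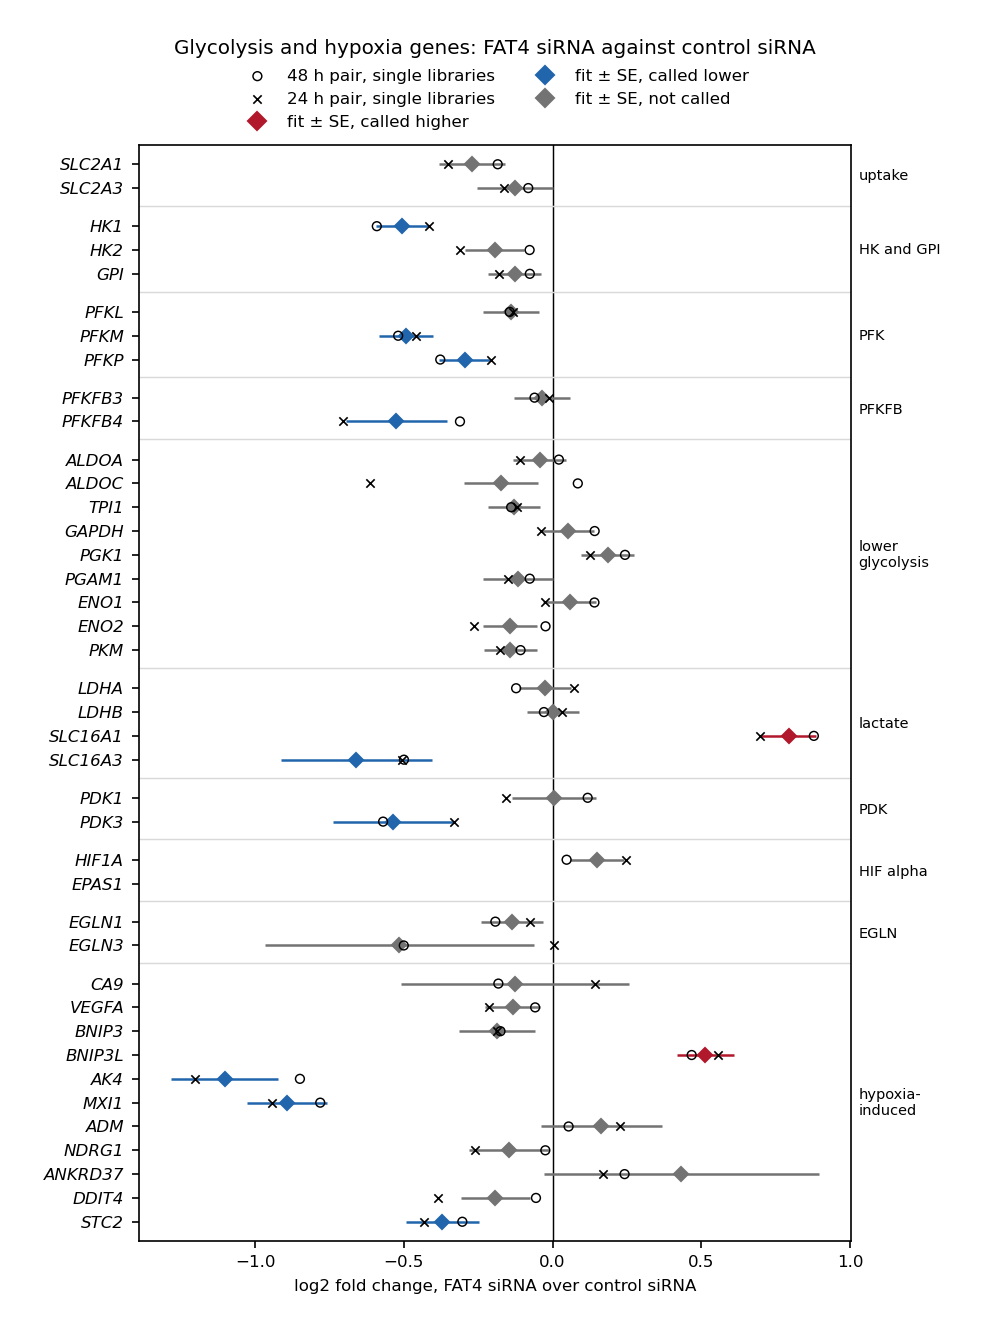
Fitted log2 fold change of the FAT4 siRNA over the control siRNA for each tested gene (diamonds, with the SE of the fit as bars; red called higher, blue called lower, grey not called), with log2 ratios of CPM plus 1 in the 48 h pair (circles) and the 24 h pair (crosses). SLC16A1 and BNIP3L stand right of 0 and AK4 and MXI1 farthest left, and the circle and the cross of each of these genes lie on the same side.

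Base composition moved with the siRNA ratio and, under the control siRNA, with the ratio of 48 h to 24 h. Beyond a correction for GC content and length, the part of base composition in the calls was not tested. Across 10441 genes of at least 5 CPM, transcript GC content and the log2 ratio had a Spearman coefficient of -0.23 in the 48 h pair and -0.58 in the 24 h pair. For 48 h over 24 h the coefficient was 0.01 with the FAT4 siRNA and -0.30 with the control siRNA. Median GC content was 51.7% in the 9 members that fell with the FAT4 siRNA and 40.3% in the 2 that rose. It was 54.4% in all members tested, against 48.8% in all genes tested. After correction for GC content and transcript length, SLC16A1 and BNIP3L still rose and HK1, PFKM, PDK3, AK4 and MXI1 still fell, whereas PFKP, PFKFB4, SLC16A3 and STC2 were not called. The words TTGGACT and TGGACTA, picked in an earlier pass over these libraries because genes that carry them were lower, occurred in the 3' UTRs of AK4, MXI1, PDK1 and SLC16A1, or 10.0% of the members, against 15.1% of genes searched. Because the words were picked on these ratios, that their carriers differ is no finding. The median log2 ratio of carriers was -0.07 at 48 h and -0.04 at 24 h, against 0.01 and -0.01 in genes without them. AK4 and MXI1 fell, PDK1 was not called and SLC16A1 rose. AGCCTTA, picked in the same way among genes that were higher, occurred in SLC16A1, which rose, and EGLN3, which was not called, or 5.0% of members against 10.3% of genes searched.

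The siRNA ratio of some members differed between the times, which these 4 libraries cannot test. For 16 of the 40 members the counting intervals at 48 h and 24 h did not overlap, and the ratio was lower at 24 h in 11 of these and higher at 24 h in 5. These intervals cover counting error only and are narrow for abundant genes. How many of all genes differ in this way was not counted, so neither the 16 nor their direction can be read as a trait of the set. ALDOC had a ratio of FAT4 siRNA to control of 1.06 at 48 h (interval 0.988 to 1.14) and of 0.623 at 24 h (interval 0.492 to 0.784). HK1 went the other way, with 0.663 at 48 h (interval 0.637 to 0.690) and 0.748 at 24 h (interval 0.720 to 0.778), as did PFKP, with 0.769 at 48 h (interval 0.741 to 0.798) and 0.865 at 24 h (interval 0.836 to 0.895). HIF1A had 1.03 at 48 h (interval 0.990 to 1.08) and 1.19 at 24 h (interval 1.14 to 1.24). For AK4, with 0.535 at 48 h (interval 0.448 to 0.636) and 0.363 at 24 h (interval 0.253 to 0.510), the intervals overlapped.

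The make-up of several steps changed with these differences. Shares of reads between isoenzymes of 1 step are given with exact 95% intervals in each library, which cover counting error only. Genes outside the set were left out of these totals. HK2 held 28.7% of hexokinase reads with the FAT4 siRNA (27.5 to 29.95%) and 22.0% with the control siRNA (21.2 to 22.8%) at 48 h, against 19.4% (18.3 to 20.6%) and 18.3% (17.6 to 19.1%) at 24 h. The HK2 share was thus highest in the FAT4 siRNA library at 48 h, where HK1 was lowest. ALDOC held 7.16% and 6.87% of aldolase reads at 48 h, against 0.576% and 0.855% at 24 h. Of the reads of SLC16A1 and SLC16A3, SLC16A3 held 3.06% with the FAT4 siRNA (2.58 to 3.60%) and 7.83% with the control siRNA (6.95 to 8.79%) at 48 h. At 24 h it held 0.131% and 0.631%. SLC16A1 RNA thus remained more abundant than SLC16A3 RNA in every library. ENO2 held 9.08% and 10.1% of enolase reads at 48 h, against 6.07% and 7.09% at 24 h, and PFKL held 26.3% and 22.6% of phosphofructokinase reads at 48 h, against 20.5% and 18.6% at 24 h. LDHA held 53.9% and 55.5% of lactate dehydrogenase reads at 48 h, against 51.6% and 50.9% at 24 h. Per kilobase of transcript, LDHA held 35.9 to 40.2% over the 4 libraries, PFKP 51.1 to 55.1% of phosphofructokinase and SLC2A1 64.3 to 68.2% of the pair with SLC2A3. PDK1 held 65.5 to 83.6% of the reads it shares with PDK3 but 20.4 to 40.8% per kilobase, and its reference transcript is 14193 bases long.

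**Figure D5:**
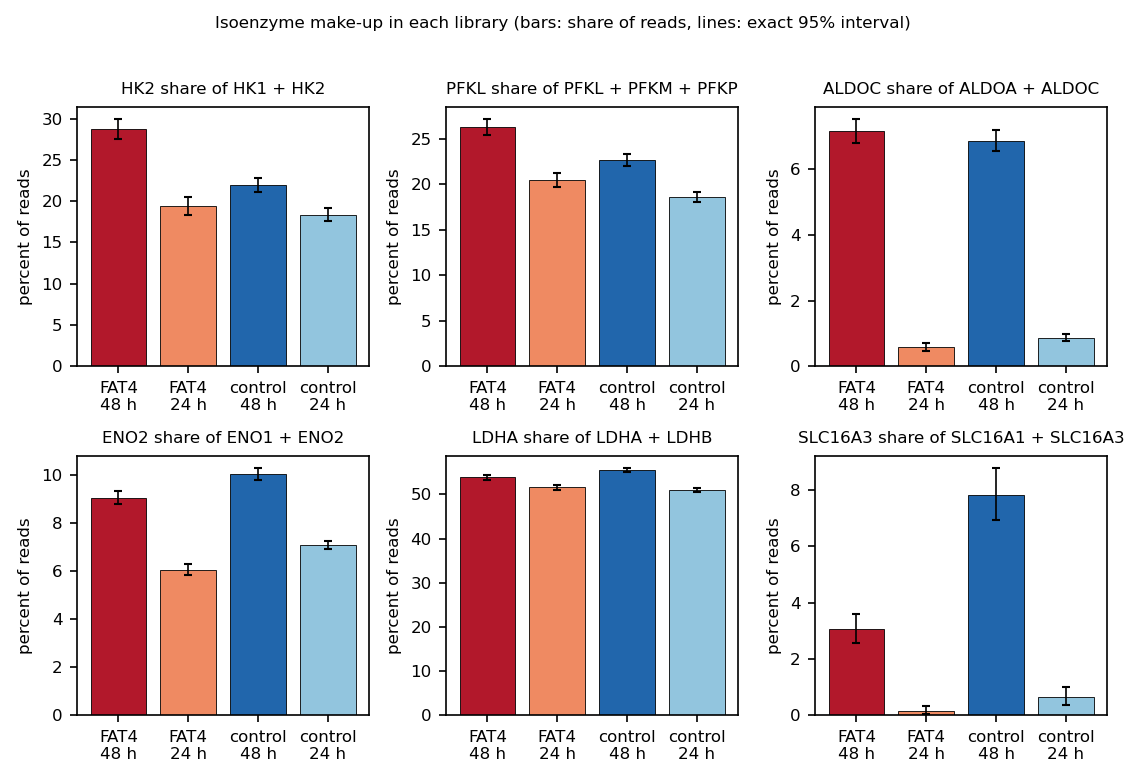
Share of reads held by 1 isoenzyme of a step in each library (bars, percent, axes from 0, with exact 95% counting intervals), FAT4 siRNA left of control siRNA. ALDOC and SLC16A3 are a minor part of their pairs with ALDOA and SLC16A1 at 24 h and a larger one at 48 h. The HK2 share is largest in the FAT4 siRNA library at 48 h (28.7%).

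Neighbouring pathways were read from lists of 118 further genes, 102 of them tested. Of 34 other hypoxia-induced genes, 14 rose and 2 fell at 48 h, with a median log2 fold change of 0.33. These were 41.2% and 5.88%, against 13.8% and 12.8% of all genes, and DESeq2 called 9 of the list higher and 0 lower. The lipoprotein receptor VLDLR rose by 2.90, the nuclear receptor RORA by 2.06 and the collagen prolyl hydroxylase P4HA2 by 1.63. IGFBP3 fell by 1.42 and the transferrin receptor TFRC by 0.29. The log2 ratio of TFRC was -0.49 with the FAT4 siRNA and only -0.09 with the control siRNA. Of 13 tested glycolytic isoenzymes and transporters outside the set, 4 rose (30.8%, against 13.8% of all genes) and 0 fell at 48 h. The rises were led by SLC2A12 (1.90), SLC2A6 (1.82) and the muscle enolase ENO3 (1.10). DESeq2 called 0 of these, and SLC2A12 rested on 20 and 27 reads at 48 h with the FAT4 and the control siRNA, against 4 and 9 reads at 24 h, and SLC2A6 on 26 and 69 reads, against 8 and 20. Of 26 tested genes of the citric acid cycle and pyruvate dehydrogenase, 0 rose, 4 fell and 22 were not called at 48 h (median log2 fold change -0.08), so the share that fell, 15.4%, was near the 12.8% of all genes. Citrate synthase (CS) fell by 0.42 and the isocitrate dehydrogenase subunits IDH3A and IDH3G by 0.36 and 0.31. Of 10 tested genes of glycogen, hexosamine and gluconeogenesis, 4 rose (40%, against 13.8% of all genes) and 0 fell, and DESeq2 called 3 of the list higher. Among the rises were the mitochondrial PEP carboxykinase PCK2 by 3.09, the glycogen phosphorylase PYGL by 0.58 and GFPT1, which feeds hexosamine synthesis, by 0.44. Among 12 tested HIF regulators, HIF3A and VHL rose by 1.59 and 0.32 and the coactivator EP300 fell by 0.27. These were 16.7% and 8.33% of the list, near the 13.8% and 12.8% of all genes, and DESeq2 called 0 of the 12. HIF3A rested on 43 and 71 reads at 48 h with the FAT4 and the control siRNA, against 16 and 23 reads at 24 h.

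With the FAT4 siRNA, 10 of the 102 further genes rose and 17 fell, or 26.5% called, near the share over all genes. ARNT, the obligate partner of the HIF alpha subunits, was at 49.0 CPM at 48 h and 44.3 CPM at 24 h with the FAT4 siRNA, against 67.2 and 65.8 CPM with the control siRNA, and fell by 0.51 (adjusted p = 4.42e-05). It was the only one of the 12 tested HIF regulators to be called (8.33% lower, against 14.1% of all genes). Of 34 other hypoxia-induced genes, 6 rose and 6 fell, or 17.6% each, against 11.9% and 14.1% of all genes. DESeq2 called 2 of the list higher and 2 lower. IGFBP3 and LOX were among the rises, with 1.71 and 0.63, and MIF, CA12 and KDM4B fell by 0.65, 0.60 and 0.51. The log2 ratio of LOX was 0.96 at 24 h and only 0.18 at 48 h. IGFBP3 was scarce, with 13 reads at 48 h and 27 at 24 h with the FAT4 siRNA, against 3 and 15 reads with the control siRNA. In the citric acid cycle list 1 gene, the GTP-linked succinyl-CoA ligase subunit SUCLG2, rose by 0.94 and 6 fell, among them its ATP-linked counterpart SUCLA2 by 0.68 and pyruvate carboxylase (PC) by 0.59. The 6 were 23.1% of the list, against 14.1% of all genes, and DESeq2 called 1 gene of the list higher and 4 lower. In the glycogen, hexosamine and gluconeogenesis list 1 of 10 tested genes rose, GFPT1 by 0.28 (adjusted p = 0.0113), and 3 fell (30%, against 14.1% of all genes). DESeq2 called 0 of this list higher and 2 lower. The glycogen synthase GYS1 fell by 0.65 and the phosphoglucomutase PGM1 by 0.55, and PYGL fell by 0.35. ENO3 was the only glycolytic isoenzyme or transporter outside the set to be called (7.69% higher, against 11.9% of all genes), and it rose by 0.73. In the pentose phosphate pathway RPE rose by 0.34 and RPIA fell by 0.35, each 14.3% of the list and near the shares of all genes.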

How the data were processed

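RNA-seq was made from 4 libraries with a strand-specific mRNA kit, per the labels' protocols. The authors deposited raw read counts for each gene as whole numbers. Build hg19 and the tools HTSeq, SAMtools, TopHat2 and CASAVA 1.8.2 appear in the submitters' processing notes. Which annotation, counting mode and strand setting were used is not given in the sources, so overlapping, antisense and near-identical genes are uncertain. The 5 closing counter entries were left out; reads outside genes were 19.5% to 20.5% of assignable reads.

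Counts were fitted with edgeR 4.0.16 in R 4.3.3 (TMM; filterByExpr with minimum count 10 and total 15; quasi-likelihood test, two-sided, siRNA and time additive, Benjamini-Hochberg at 0.05). SEs are the log2 fold change over the root of F. Single ratios use 1 library each, with exact 95% intervals (Clopper-Pearson); log2 ratios add 1 CPM. Transcript length, GC content and 3' UTRs come from 1 GENCODE 29 transcript per gene, matched for 96% of tested genes. The fit was tested on counts simulated with the common dispersion it had estimated, which cannot check the spread between cultures.

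Members, lists and tests were chosen with earlier results of these data known. Named genes are FAT4, all members, the marker CD99 and up to 3 called genes per direction of each further list, some of which are not reported here. Alternatives were DESeq2 1.42.0, other scaling, filters, terms and a GC and length correction.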

Additional observations from a re-analysis of the deposited data

Results flagged for a closer look

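3 abundant members had siRNA ratios on opposite sides of 1 at the 2 times, with counting intervals that excluded 1; the difference itself was not tested. GAPDH had a ratio of FAT4 siRNA to control of 1.10 at 48 h and 0.973 at 24 h, ENO1 1.10 and 0.983, and LDHA 0.918 and 1.05. In the same way the ratio of 48 h to 24 h was 1.03 with the FAT4 siRNA and 0.906 with the control siRNA for GAPDH, and 0.964 and 1.10 for LDHA. These differences are small, and their reads are so many that counting intervals are narrow. No replicate culture measured how such levels vary.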

How the results depend on the processing

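No paired analysis was possible because each group has 1 library and the labels carry no replicate numbers; the additive fit already compares the siRNAs within each time and the times within each siRNA. The direction of every called member held under each alternative run. DESeq2 called 600 genes higher and 644 lower for the siRNA, and 531 higher and 645 lower for time, against 1625, 1930, 1892 and 1754 with edgeR. Of the members, DESeq2 called 2 higher and 4 lower for the siRNA, against 2 and 9 with edgeR. For time it called 15 members higher and 2 lower, against 21 and 4. ANKRD37, among the 21, was given no adjusted p by DESeq2. With only the term tested in the model, edgeR called 0 genes in either direction for the siRNA (1706 at an unadjusted p under 0.05), hence 0 members higher and 0 lower, and for time 46 genes higher and 4 lower, with 8 members higher (ALDOC, SLC16A3, PDK1, CA9, VEGFA, BNIP3, DDIT4 and STC2) and 0 lower. The GC content and length correction left 5 members lower for the siRNA and 7 lower for time. Library totals without TMM left 2 members lower for time. In plain counts, mean shares over the libraries were 77.9% for HK1, 91.9% for ENO1, 53.0% for LDHA, 73.3% for PDK1, 99.93% for HIF1A and 98.5% for EGLN1, against 84.9%, 94.7%, 37.8%, 28.4%, 99.95% and 96.2% per kilobase. For CA9, SLC16A3, EGLN3, EPAS1 and ANKRD37 depth limits every fold change.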
